A study of Homo sapiens with 4 samples.

Results

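The genes described here were 49 ligands, receptors, inhibitors and signal carriers of the Wnt pathway, chosen by name, of 22439 genes that could be named on the arrays. They were measured in A549, an established human lung adenocarcinoma cell line, on 4 one-color Agilent expression arrays. One array held RNA of cells transfected with *miR-486-5p*, the guide strand of pre-*miR-486*, 1 held RNA of cells transfected with *miR-486-3p*, its passenger strand, and 2 were mock arrays of cells given only the transfection reagent, Lipofectamine RNAiMAX. All cells were grown in the same medium, and no array held cells transfected with a control miRNA, so a response to any transfected small RNA cannot be told apart from a response to either strand. Each comparison asked how the pathway's genes stood after 1 strand relative to mock. Nothing says that the mock arrays came from separate cultures, so the p-values measure the spread between these 2 arrays alone, which may be technical.

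Wnt proteins are secreted ligands that bind Frizzled receptors together with the co-receptors LRP5 and LRP6, or with the alternative receptors ROR1, ROR2 and RYK. In the canonical branch, receptor binding recruits Dishevelled and Axin and stops a destruction complex, built on Axin and APC with the kinase GSK3B, from marking β-catenin for breakdown. The β-catenin then enters the nucleus and works with transcription factors of the TCF/LEF family. Several of the genes it switches on act back on the pathway as brakes, among them *AXIN2*, *RNF43*, *ZNRF3*, *NKD1* and *DKK1*, and in the lung this pathway takes part in development and in repair of the epithelium.

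A value below is the log2 of a probe's signal minus the 75th percentile of its array, called a log2 signal, and a log2 difference is a strand's log2 signal minus the mean of the mock arrays. The signal at the 75th percentile was 114 on both mock arrays, 105 under *miR-486-5p* and 93.1 under *miR-486-3p*, 30690 to 31516 of 58201 probes were well above background, and all arrays lay on 1 slide. Of the epithelial markers, 5 of 9 were well above background on all arrays, while *CDH1* and *SFTPB* were so on none. The summed epithelial signal, in linear units, was 26300 and 26100 in mock, 17900 under *miR-486-5p* and 16100 under *miR-486-3p*. The sums over leukocyte, endothelial and fibroblast markers reached at most 153, 68.8 and 42.8 on any array, with *PECAM1* and *COL3A1* not well above background on any; the part of these markers in the results was not tested. In bulk RNA, fewer cells of a kind and less RNA per cell cannot be told apart.

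The 49 genes had 64 probes. For 9 genes no probe was well above background on any array: *WNT4*, *WNT5A*, *WNT7A*, *WNT7B*, *WNT9A*, *FZD10*, *ROR2*, *VANGL2* and *NKD1*. The other 40 genes were above background on at least 1 array. *WNT11* and the second probe of *APC* were so on the *miR-486-3p* array alone. Between the mock arrays, none of the 46 probes above background on all arrays differed by more than 0.5 on the log2 scale, the largest difference was 0.42 and the median 0.113.

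After *miR-486-3p*, more of these genes were lower than higher. By limma with a Benjamini-Hochberg adjusted p under 0.05, 17 of 40 fell (42.5%) and 9 rose (22.5%), while 31.6% of all 16662 genes tested fell and 31.9% rose. The median log2 difference was −0.34, against 0.06 over all genes, and the range ran from −3.16 for *DKK1*, a secreted antagonist, to 1.51 for the ligand *WNT3*. Past a log2 difference of 0.5, with the strand array outside both mock arrays (the size limit), 18 genes were lower (45.0%) and 8 higher (20.0%), against 26.6% and 29.6% of all genes. With each array scaled to its median, 23 genes fell and 5 rose, but this scaling also moved the median of all genes to −0.32. Without the filter on dim probes, the falls of *FZD5*, *ROR1* and *LEF1* given below no longer passed.

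After *miR-486-5p*, 3 of the 40 genes passed the test. *FZD2* and *FZD8* fell (5.0%, against 6.66% of all genes) and *WNT10A* rose (2.5%, against 3.58%), each close to the threshold. The lowest limma adjusted p of any probe in this comparison was 0.0475, so every call in it lay close to the threshold. None of the 3 calls held with the authors' log2 values or without the filter on dim probes. The median log2 difference was −0.37, against 0.03 over all genes, with 28 of 39 genes below 0. Past the size limit, 14 genes were lower (35.9%) and 2 higher (5.13%), against 15.6% and 13.6% of all genes. These are counts without a test. The lower genes past the limit were 3 of 7 measured ligands, 4 of 9 Frizzled receptors and 2 of 4 co-receptors and alternative receptors. The others were 1 of 3 receptor turnover genes, the 1 planar polarity gene measured, 2 of 4 transcription factors and 1 of 9 cytoplasmic genes. With so few genes per role, these shares do not separate the roles. The share of cytoplasmic genes (11.1%) was near that of all genes (15.6%), and 0 of 2 secreted antagonists passed the limit.

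**Figure D1:**
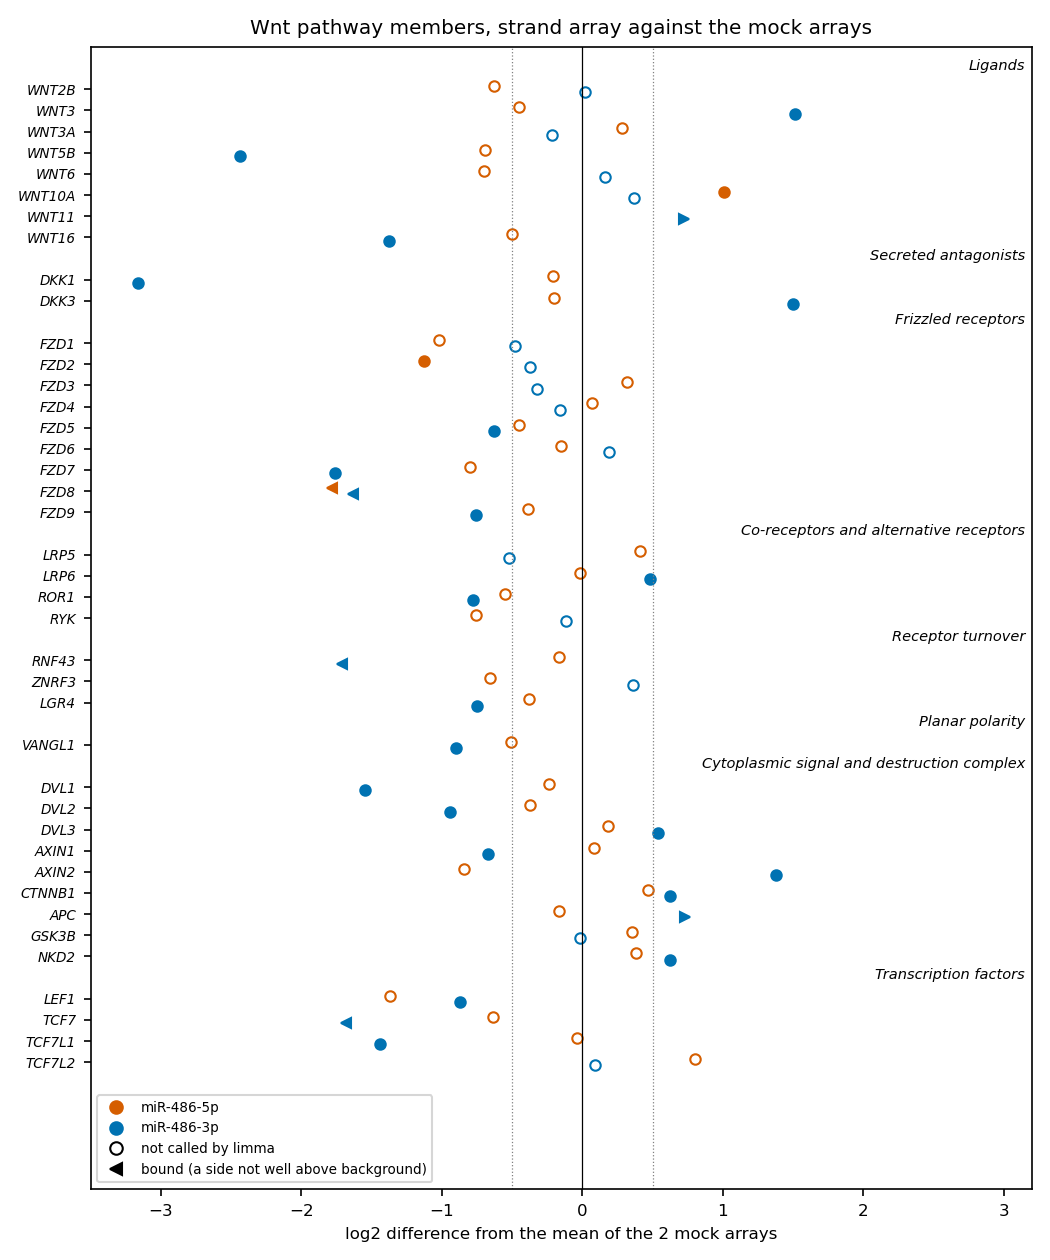
Log2 difference from the mock mean (horizontal axis) for each of the 40 genes measured, grouped by role, after *miR-486-5p* (orange) and *miR-486-3p* (blue), with dotted lines at −0.5 and 0.5. Filled points passed limma, open points did not, and triangles are bounds; the blue points spread from −3.16 for *DKK1* to 1.51 for *WNT3*, and most orange points are open and lie below 0.

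The promoters of the feedback targets are among the places where β-catenin and TCF/LEF act. The TCF/LEF motif was searched only as CTTTGAA or CTTTGAT, on either strand, and other forms of it were not searched. The windows ran from 250 bases before to 50 after each start site and were taken from RefSeq on GRCh38.p14. These letters were found in 1 of 46 windows of the 37 member genes that had one (2.17%) and in 2409 of all 35116 windows (6.86%). The match lay in the promoter of *DKK1*, at position −95 from the start site. The feedback targets *AXIN2*, *ZNRF3* and *NKD1* had no window and were not searched. The windows of *DKK1*, *RNF43* (the first of its windows) and *LEF1* are shown as examples of feedback targets that fell after *miR-486-3p*. *TCF7*, which fell as well, had 2 windows with no match and is not shown. Capitals mark the letters searched. Each window is written 5′ to 3′ on the strand of the gene, at chr10:52314031-52314330 (plus), chr17:58417485-58417784 (minus) and chr4:108166252-108166551 (minus).
DKK1: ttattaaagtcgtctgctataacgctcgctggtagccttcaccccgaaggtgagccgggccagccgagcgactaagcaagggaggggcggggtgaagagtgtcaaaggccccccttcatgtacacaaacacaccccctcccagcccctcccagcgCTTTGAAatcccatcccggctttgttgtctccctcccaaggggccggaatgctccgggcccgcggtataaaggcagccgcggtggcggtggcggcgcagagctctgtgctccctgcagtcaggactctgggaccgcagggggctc
RNF43: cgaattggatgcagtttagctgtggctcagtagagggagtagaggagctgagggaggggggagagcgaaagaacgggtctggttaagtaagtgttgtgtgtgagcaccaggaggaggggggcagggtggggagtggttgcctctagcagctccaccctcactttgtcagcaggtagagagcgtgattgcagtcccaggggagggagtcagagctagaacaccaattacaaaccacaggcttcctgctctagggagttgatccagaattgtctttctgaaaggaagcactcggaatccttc
LEF1: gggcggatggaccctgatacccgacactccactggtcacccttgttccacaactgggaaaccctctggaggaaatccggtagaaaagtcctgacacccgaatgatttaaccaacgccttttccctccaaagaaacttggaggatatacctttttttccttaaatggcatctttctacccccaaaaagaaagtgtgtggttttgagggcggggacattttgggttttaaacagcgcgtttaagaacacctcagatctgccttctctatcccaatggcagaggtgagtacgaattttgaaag
The windows of *RNF43* and *LEF1* held no match to these letters. Their GC contents were 54.3% and 47.0%, with 5 and 9 CpG dinucleotides, and that of *DKK1* was 63.7%, with 20, against a median of 58.7% and 14 over all windows. A match is a description of letters and does not show binding.

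*DKK1*, which blocks LRP5 and LRP6, fell most after *miR-486-3p* among the genes measured on both sides. Its log2 signal was 1.87 and 1.79 in mock, 1.62 under *miR-486-5p* and −1.33 under *miR-486-3p*. The log2 difference after *miR-486-3p* was −3.16 (SE 0.0972, limma adjusted p = 0.00762), which left 11.2% of the mock signal, and after *miR-486-5p* it was −0.21 (adjusted p = 0.23). The other antagonist, *DKK3*, a relative of the Dickkopf family that acts differently from *DKK1*, went the opposite way on the same array. Its first probe read 1.96 and 1.99 in mock, 1.65 under *miR-486-5p* and 3.66 under *miR-486-3p*. Its second, dimmer probe read −1.93 and −1.74, −1.91 and −0.52 in that order. Both probes of *DKK3* rose after *miR-486-3p*, with a mean log2 difference of 1.50 or 2.83-fold (adjusted p = 0.00781 and 0.0133), and the difference after *miR-486-5p* was −0.20. The 2 antagonists thus lay at nearly opposite ends of the *miR-486-3p* response and neither passed the test after *miR-486-5p*.

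*AXIN2* is the negative regulator most often read as a reporter of canonical Wnt signaling. Of the 39 genes with a value after both strands, it alone passed the size limit in opposite directions (not counted over all genes). Its first probe read −2.67 and −3.09 in mock, −3.80 under *miR-486-5p* and −1.54 under *miR-486-3p*. Its second probe read −3.39 and −2.96, −3.93 and −1.76. Each strand has 1 array, and on both probes *miR-486-5p* read lowest and *miR-486-3p* highest. How many of all genes show this order was not counted. *AXIN2* rose 2.60-fold after *miR-486-3p* (log2 difference 1.38, adjusted p = 0.0317 and 0.0293), and the difference after *miR-486-5p*, −0.84, did not pass the test (adjusted p = 0.107 and 0.14). Between the strands the direct contrast was 2.22 on the log2 scale, or 4.65-fold (adjusted p = 0.0215 and 0.0228). The rise against mock was lost with the authors' log2 values and without the filter on dim probes, and both probes lay far below the 75th percentile.

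Of the feedback targets that act on receptors, *RNF43* fell after *miR-486-3p* and *ZNRF3* did not pass the test against mock. *RNF43*, a ubiquitin ligase that removes Frizzled receptors from the surface, read −2.68 and −2.69 in mock, −2.86 under *miR-486-5p* and −5.71 under *miR-486-3p*, where it was not well above background. It was at least 3.27-fold lower after *miR-486-3p* (adjusted p = 0.00762), and its difference after *miR-486-5p* was −0.17 (adjusted p = 0.259). With normexp background correction, which adds an offset of 50 to the signal, its log2 difference after *miR-486-3p* was −0.26. *ZNRF3*, the related ligase, read 1.36 and 1.34 in mock, 0.85 under *miR-486-5p* and 1.39 under *miR-486-3p* by its first probe, and −2.84, −2.59, −3.53 and −2.03 by its second. Its mean differences of −0.66 and 0.36 did not pass the test (0.68 by the second probe after *miR-486-3p*, adjusted p = 0.0508), although the direct contrast between the strands, 1.02, did, with the same order of the strands as for *AXIN2*. *LGR4*, the receptor for R-spondins that holds these ligases in check, fell by 0.75 on the log2 scale after *miR-486-3p* (adjusted p = 0.0443), a call lost with the authors' log2 values and without the filter. *NKD1*, an inhibitor of Dishevelled, was not well above background on any array, with readings of −6.84, −5.52, −5.94 and −5.09 in the same order, which carry no direction.

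*LEF1* and *TCF7* are at the same time nuclear partners of β-catenin and targets of it. *LEF1* read 0.14 and −0.10 in mock, −1.35 under *miR-486-5p* and −0.84 under *miR-486-3p*, below both mock arrays in each case. It fell by 0.87 after *miR-486-3p* (adjusted p = 0.0316). After *miR-486-5p* its log2 difference was −1.37 (SE 0.152), the largest among the genes measured on both sides, yet its adjusted p of 0.0503 missed the threshold. *TCF7* read −0.96 and −0.87 in mock, −1.42 under *miR-486-5p* and −2.50 under *miR-486-3p* by its first probe. Its second probe read −2.46, −2.54, −3.27 and −4.28, and was dim (not well above background) under *miR-486-3p*. *TCF7* fell after *miR-486-3p* by both probes (log2 difference −1.58 by the first, adjusted p = 0.00851 and 0.00796), and its difference after *miR-486-5p* was −0.64 (adjusted p = 0.0751 and 0.0529).

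The remaining TCF genes, which mostly repress targets when β-catenin is absent, split between the strands. *TCF7L1* read −1.18 and −1.29 in mock, −1.28 under *miR-486-5p* and −2.67 under *miR-486-3p*, and fell by 1.44 on the latter (adjusted p = 0.00944). *TCF7L2*, the TCF studied most in the intestine, read −1.88 and −2.04 in mock, −1.45 under *miR-486-5p* and −1.89 under *miR-486-3p* by its first probe. By its second probe the values were −2.66, −2.63, −1.99 and −2.52, and by its dimmest −3.82, −4.17, −2.75 and −3.93. The probes thus differed from mock by 0.51, 0.65 and 1.25 after *miR-486-5p* (mean 0.80, adjusted p = 0.0551 to 0.0971). After *miR-486-3p* its mean difference was 0.09. *TCF7L2* was above both mock arrays on all 3 probes after *miR-486-5p* without passing the test, and in the direct contrast it was lower after *miR-486-3p* (−0.71), a call lost when every probe had to pass, with its brightest probe alone and without the filter on dim probes. Over the 7 feedback targets, 6 of which were measured, all 6 differences were below 0 after *miR-486-5p* (median −0.65), as were 7578 of 16024 genes in all, but none passed limma. After *miR-486-3p*, 4 fell and 1 rose, against 31.6% and 31.9% of all genes, and the median was −1.27.

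**Figure D2:**
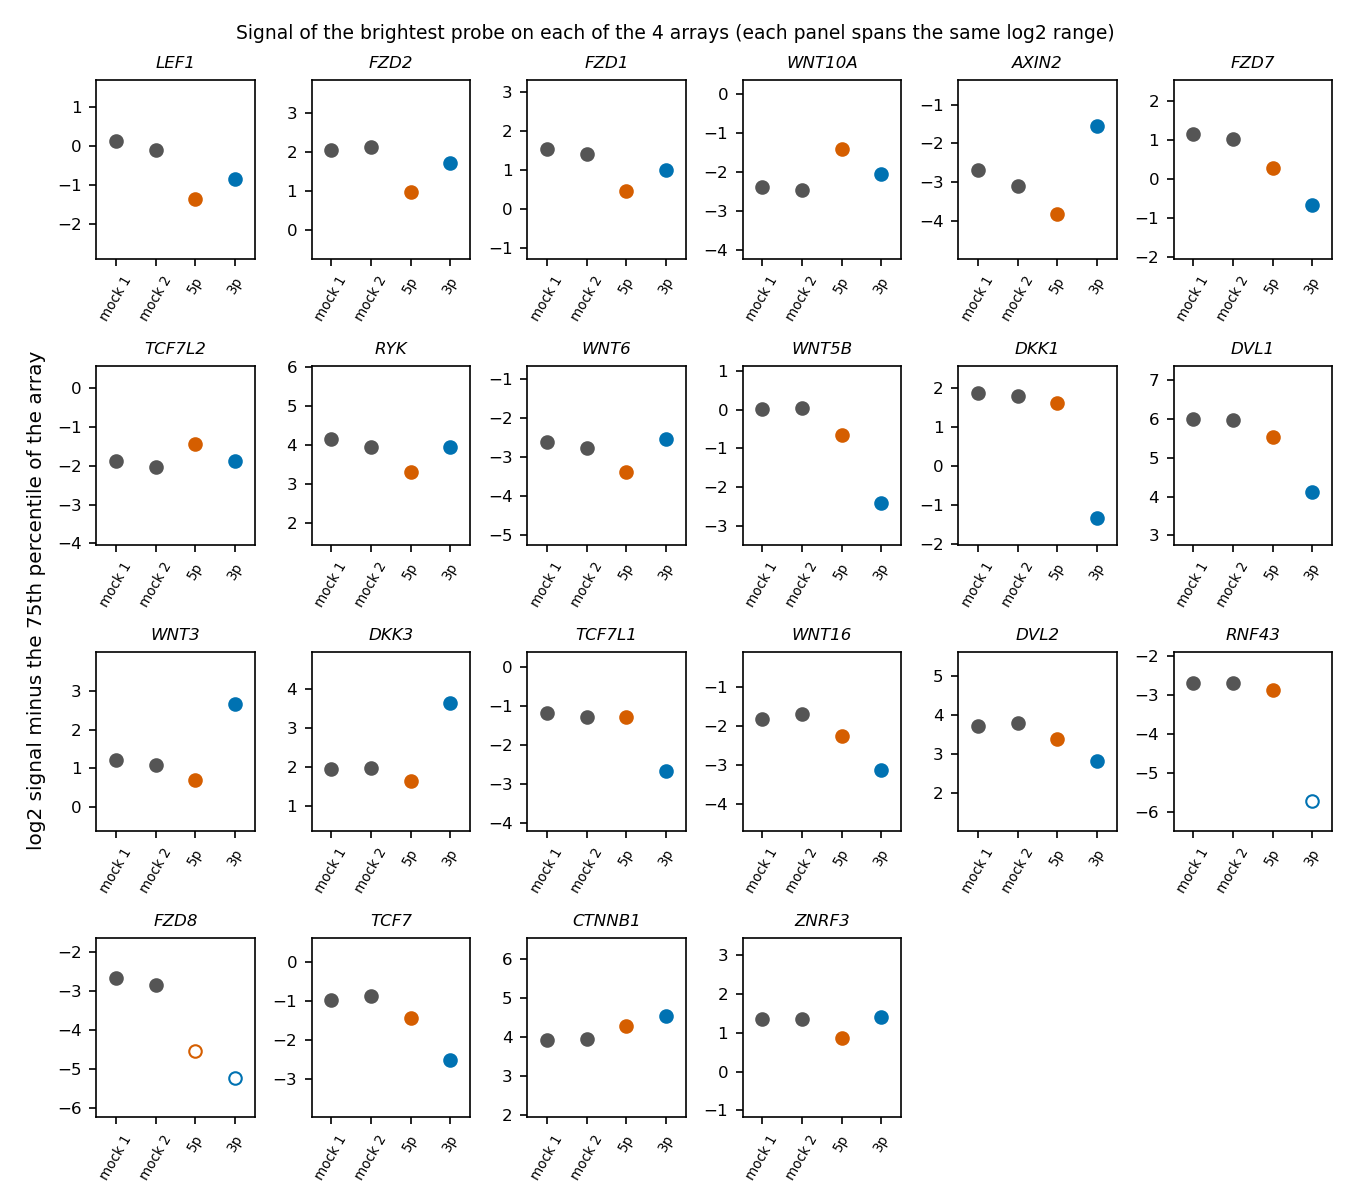
Log2 signal minus the 75th percentile of the array (vertical axis, the same log2 span in every panel) of the brightest probe of each gene whose values are given in full, on the 2 mock arrays (grey), after *miR-486-5p* (orange) and after *miR-486-3p* (blue). Open points were not well above background; the mock points lie close together, *DKK1* drops from 1.79 or above to −1.33 after *miR-486-3p*, and *AXIN2* is lowest after *miR-486-5p* and highest after *miR-486-3p*.

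Among the ligands, 8 of 13 were measured. After *miR-486-3p*, *WNT5B* and *WNT16* fell and *WNT3* and *WNT11* rose. *WNT5B*, a ligand known mainly for signaling without β-catenin, read 0.02 and 0.04 in mock, −0.66 under *miR-486-5p* and −2.41 under *miR-486-3p*. It was left at 18.4% of mock after *miR-486-3p* (log2 difference −2.44, adjusted p = 0.00762), with −0.69 after *miR-486-5p* (adjusted p = 0.0534). *WNT16* read −1.81 and −1.68, −2.24 and −3.12 in the same order, a fall of the same kind but smaller (−1.38, adjusted p = 0.0105). *WNT3*, a canonical ligand, read 1.22 and 1.09 in mock, 0.71 under *miR-486-5p* and 2.66 under *miR-486-3p*. It rose by 1.51 on the log2 scale after *miR-486-3p* (adjusted p = 0.00964), its difference after *miR-486-5p* was −0.45 (adjusted p = 0.104), and the direct contrast was 1.96. *WNT11*, another ligand linked to signaling without β-catenin, was measured after *miR-486-3p* alone, where it was at least 1.64-fold higher than mock (adjusted p = 0.00762). It could enter only by being higher there, and its log2 bound of 0.72 was 0.34 under median scaling, 0.29 under quantile normalization and 0.22 with normexp.

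After *miR-486-5p*, *WNT10A* was the ligand that rose. It read −2.39 and −2.47 in mock, −1.42 under *miR-486-5p* and −2.06 under *miR-486-3p*, with log2 differences of 1.01 (adjusted p = 0.0478) and 0.37 (adjusted p = 0.064). *WNT6* read −2.62 and −2.76 in mock, −3.39 under *miR-486-5p* and −2.53 under *miR-486-3p*. *WNT2B* and *WNT6* lay below both mock arrays after *miR-486-5p*, by −0.63 and −0.70, but did not pass the test (adjusted p = 0.0708 and 0.0621). The difference of *WNT3A* was 0.28 under *miR-486-5p* and −0.22 under *miR-486-3p*, neither past the test.

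Of the 10 Frizzled receptors, 9 were measured, and 4 fell after *miR-486-3p* (44.4%, against 31.6% of all genes). None rose on either array, against 31.9% of all genes on the passenger strand array. On the guide strand array, 2 fell (22.2%, against 6.66% of all genes), and the absence of rises was near the 3.58% of all genes. *FZD7* read 1.16 and 1.04 in mock, 0.30 under *miR-486-5p* and −0.66 under *miR-486-3p*. It was left at 29.5% of mock after *miR-486-3p* (log2 difference −1.76, adjusted p = 0.00857), and its difference of −0.80 after *miR-486-5p* was just short of the threshold (adjusted p = 0.0555). *FZD8* read −2.67 and −2.86 in mock, −4.54 under *miR-486-5p* and −5.23 under *miR-486-3p*, and was not well above background after either strand. It was at least 3.42-fold lower after *miR-486-5p* (adjusted p = 0.0475) and at least 3.09-fold lower after *miR-486-3p* (adjusted p = 0.00781), the only Frizzled gene called on both arrays. With normexp these log2 differences were −0.27 and −0.26. The other falls after *miR-486-3p* were those of *FZD5* (−0.63, adjusted p = 0.0302) and *FZD9* (−0.76, adjusted p = 0.0161).

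*FZD2* passed the test after *miR-486-5p*, and *FZD1*, a close relative within the family, on neither array. *FZD2* read 2.05 and 2.13 in mock, 0.96 under *miR-486-5p* and 1.72 under *miR-486-3p*. It fell to 45.7% of mock after *miR-486-5p* (log2 difference −1.13, SE 0.0964, adjusted p = 0.0475), and its difference of −0.37 after *miR-486-3p* did not pass (adjusted p = 0.0648). *FZD1* read 1.55 and 1.41, 0.47 and 1.00, with differences of −1.02 (adjusted p = 0.0504) and −0.48 (adjusted p = 0.0534). In the direct contrast *FZD2* was higher after *miR-486-3p* (0.76), a call lost under median scaling and without the filter on dim probes, and *FZD1* did not pass (0.53, adjusted p = 0.0649). The values of *FZD3*, *FZD4* and *FZD6* did not pass on either array against mock, with differences from −0.32 to 0.32.

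The co-receptors gave few calls. *LRP6*, which takes up the signal beside Frizzled, rose by 0.48 after *miR-486-3p* (adjusted p = 0.0492), while its close relative *LRP5* had a difference of −0.52 that did not pass (adjusted p = 0.056). The call of *LRP6* was lost when arrays were scaled to their median and without the filter on dim probes. *ROR1*, a receptor tyrosine kinase for ligands of the WNT5 type, fell on all 3 of its probes after *miR-486-3p* (mean −0.78, adjusted p = 0.0199 to 0.0307), with −0.55 after *miR-486-5p* (adjusted p = 0.0683 to 0.159). *RYK*, an atypical receptor kinase, read 4.15 and 3.95 in mock, 3.29 under *miR-486-5p* and 3.93 under *miR-486-3p*, and its difference of −0.76 after *miR-486-5p* did not pass (adjusted p = 0.0697). *VANGL1*, a membrane protein of planar cell polarity, fell by 0.90 after *miR-486-3p* (adjusted p = 0.0159), with −0.51 after *miR-486-5p* (adjusted p = 0.0785).

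The cytoplasmic genes were the one role in which rises outnumbered falls after *miR-486-3p*, with 3 of 9 measured genes lower (33.3%, against 31.6% of all genes) and 5 higher (55.6%, against 31.9%). Under median scaling 3 of these rises (*DVL3*, *CTNNB1* and *NKD2*) were lost, and rises no longer outnumbered falls. The Dishevelled genes, which carry the signal from Frizzled inward, did not move together. *DVL1* read 5.98 and 5.96 in mock, 5.53 under *miR-486-5p* and 4.12 under *miR-486-3p* by its first probe, and 0.64, 0.77, 0.66 and −0.55 by its second. It was left at 34.2% of mock after *miR-486-3p* (log2 difference −1.55, adjusted p = 0.00762 and 0.0116), with −0.24 after *miR-486-5p*. *DVL2* read 3.72 and 3.81, 3.39 and 2.83, and fell by 0.94 after *miR-486-3p* (adjusted p = 0.0145). *DVL3* rose by 0.54 there (adjusted p = 0.0274).

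Within the destruction complex, *AXIN1* fell while its relative *AXIN2* rose after *miR-486-3p*. The log2 difference of *AXIN1*, the constant scaffold of the complex, was −0.67 after *miR-486-3p* (adjusted p = 0.0229) and 0.08 after *miR-486-5p*. *APC*, the tumor suppressor that binds β-catenin in the complex, read −0.53 and −0.48 in mock, −0.68 under *miR-486-5p* and 0.38 under *miR-486-3p* by its first probe, a rise of 0.89 (adjusted p = 0.014). Its second probe was measured on the *miR-486-3p* array alone and did not pass the test. The kinase *GSK3B* differed by 0.35 and −0.02 after the 2 strands, neither past the test. *NKD2*, a second inhibitor of Dishevelled, rose by 0.62 after *miR-486-3p* (adjusted p = 0.0219).

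*CTNNB1*, which encodes β-catenin itself, was higher on both strand arrays, and passed the test on 1. Its first probe read 3.93 and 3.94 in mock, 4.29 under *miR-486-5p* and 4.53 under *miR-486-3p*, and its second 0.40, 0.52, 1.03 and 1.10. Both probes lay above both mock arrays after each strand. *CTNNB1* rose by 0.62 after *miR-486-3p* (adjusted p = 0.0234 and 0.0289), and its difference of 0.47 after *miR-486-5p* did not pass (adjusted p = 0.0986 and 0.0727). The arrays measured RNA and not the amount or place of the β-catenin protein, which is what the pathway controls.

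**Figure D3:**
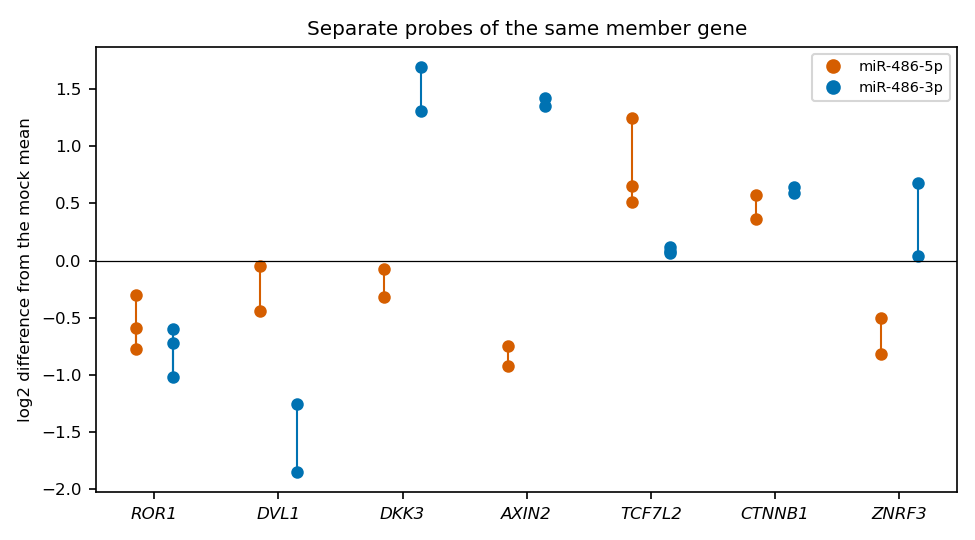
Log2 difference from the mock mean (vertical axis) of each separate probe of 7 genes that had several probes above background on all arrays, after *miR-486-5p* (orange) and *miR-486-3p* (blue); lines join the probes of a gene. The probes of each gene share their sign within a strand, and those of *TCF7L2* after *miR-486-5p* lie farthest apart (0.51 to 1.25).

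The strands were also set against each other directly, on 1 array each, with the mock arrays giving the spread. After *miR-486-3p*, 15 of 40 genes were lower than after *miR-486-5p* (37.5%, against 27.3% of all genes) and 9 were higher (22.5%, against 26.7%). Among the genes measured on both sides, the largest differences below 0 were those of *DKK1* (−2.95), *WNT5B* (−1.75), *TCF7L1* (−1.40) and *DVL1* (−1.31), and above 0 those of *AXIN2* (2.22), *WNT3* (1.96), *DKK3* (1.70) and *ZNRF3* (1.02). *RNF43*, dim under *miR-486-3p*, was at least 2.90-fold lower there than under *miR-486-5p* (adjusted p = 0.0119).

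A list of 78 further pathway genes, written with earlier results of these data known, gave the surroundings of these results. Of its 76 genes on the arrays, 58 were measured. After *miR-486-5p*, 5 of them fell (8.62%, against 6.66% of all genes) and 1 rose (1.72%, against 3.58%), with a median of −0.12, and none of these calls held with the authors' log2 values or without the filter on dim probes. After *miR-486-3p*, 24 fell (41.4%, against 31.6%) and 13 rose (22.4%, against 31.9%), with a median of −0.16. *WLS*, which carries Wnt ligands to the surface, is in both of these counts, since 1 of its probes fell (−1.30) and the other rose (1.93). *TLE1*, *CELSR1*, *SIAH1*, *PYGO2*, *CTBP1* and *CD44* count as lower through 1 of several probes tested. *SP5*, a transcriptional repressor and direct β-catenin target, read 0.09 and 0.12 in mock, −2.25 under *miR-486-5p* and 0.28 under *miR-486-3p*. It fell by 2.36 on the log2 scale after *miR-486-5p* (adjusted p = 0.0475), and its difference after *miR-486-3p* was 0.18 (adjusted p = 0.194). *KREMEN2*, a cell surface partner of *DKK1*, read 2.34, 2.35, 0.24 and 2.33 in that order, and fell by 2.10 after *miR-486-5p* (adjusted p = 0.0475). *SP5* and *KREMEN2* thus fell after *miR-486-5p* and stood near mock after *miR-486-3p*, and both direct contrasts passed the test (adjusted p = 0.0119 for each).

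The other falls after *miR-486-5p* were those of *TLE2*, a Groucho corepressor (−1.41), *APC2*, a relative of *APC* (−1.24), and the polarity cadherin *CELSR2*, at least 1.85-fold lower. *FRZB*, a secreted Frizzled-related antagonist that binds Wnt ligands, was not well above background on the mock arrays, so it could enter only by being higher on a strand array, and it rose after both strands. It was at least 2.42-fold higher after *miR-486-5p* (adjusted p = 0.0475) and at least 10.4-fold higher after *miR-486-3p* (adjusted p = 0.00762).

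After *miR-486-3p* the largest falls of this list were in target genes. Of 7 target genes measured, 4 fell (57.1%, against 31.6% of all genes) and 1 rose (14.3%, against 31.9%). These genes were listed with earlier results known, and *CD44* counts among the falls through 1 of its 2 probes. The rise was that of *CCND1* (0.53, limma adjusted p = 0.0287). *MYC*, a growth regulator with many inputs besides Wnt, read 5.04 and 4.86 in mock, 4.35 under *miR-486-5p* and 1.62 under *miR-486-3p*, and fell by 3.33 on the log2 scale after *miR-486-3p* (adjusted p = 0.00762). *SOX9* and *FOSL1*, transcription factors, fell by 2.43 and 1.86. *TLE5*, a relative of the TLE corepressors, fell by 1.81, and *CTNNBIP1*, which keeps β-catenin from TCF, by 1.70. Beside *FRZB*, the rises were led by *BTRC*, the ubiquitin ligase subunit that recognises marked β-catenin (1.47), *DAAM1*, a formin of the polarity branch (1.36), *TNKS*, a tankyrase that destabilises Axin (1.33), and *TLE3*, a corepressor (1.07).

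**Figure D4:**
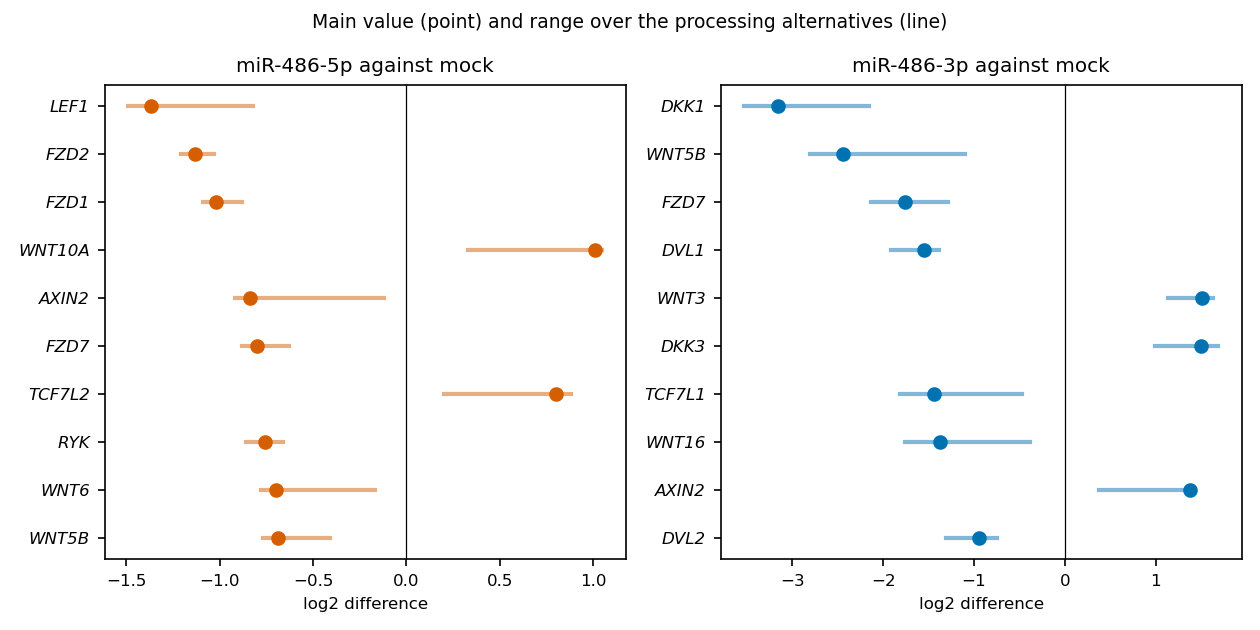
Log2 difference (horizontal axis) of the 10 genes with the largest differences after each strand among those measured on both sides, as reported (point), and its range over the processing alternatives (line). No line crosses 0; the lines of *DKK1* (−3.53 to −2.16) and *DKK3* (0.99 to 1.69) after *miR-486-3p* stay far from it, and that of *AXIN2* after *miR-486-5p* (−0.92 to −0.12) comes close.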

How the data were processed

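Total RNA of A549 cells was labeled with Cy3 and hybridised to 4 Agilent arrays. For each array the authors deposited spot intensities on a linear scale, background-corrected by Agilent Feature Extraction 12.1.1.1 per the file headers, and a table of log2 values of the same arrays, which correlated with the scanner signal at 0.99962 to 0.99994 and whose normalization is not given in the sources used here. The array design names the build hg19.

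Here, the log2 of the processed intensity minus the array's 75th percentile over non-control spots was used. Spots flagged as outliers (50 to 72 per array) were left out, and spots of a probe were averaged. No spot was saturated. Probes were named by RefSeq accession through a GRCh38.p14 table, which matched 31101 of 33077 such probes. A probe was used where the strand array or both mock arrays had it well above background, and a dim side was raised to its array's lowest signal well above background (4.28 to 4.43 in linear units before scaling), which gives a bound ("at least") under this scaling and background correction. For a gene, differences of its probes in use were averaged.

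limma 3.58.1 (R 4.3.3, lmFit and eBayes, Benjamini-Hochberg, threshold 0.05) was fitted to 33498 probes in 3 groups. Its 1 residual degree of freedom lies between the mock arrays, so a strand array is taken to vary as much as mock arrays do, and nothing says that the mock arrays came from separate cultures. The number of arrays limits the precision. A gene was called if at least 1 probe in use was called. The script was tested on simulated data.

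The members and lists were chosen with earlier results of these data known. Values on every array are given for the feedback targets, for *CTNNB1* and for the 10 largest differences per strand measured on both sides. From the further pathway list, up to 5 called genes per direction and strand are named. Values of other members were chosen for the text after they were seen. Alternatives were median scaling, quantile normalization, normexp background correction (offset 50, on the median signals), the authors' log2 values, other probe filters and rules, an intensity trend, a size limit of 1, and leaving out each mock array.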

Additional observations from a re-analysis of the deposited data

Results flagged for a closer look

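The difference of *AXIN2* between the strands stood out because its differences from mock lay past the size limit on opposite sides of 0. Its direct contrast passed the test, although the difference after *miR-486-5p* alone did not. Its log2 difference was −0.84 under *miR-486-5p* and 1.38 under *miR-486-3p*, each as the mean of 2 probes, and the direct contrast between the strands was 2.22 (limma adjusted p = 0.0215 and 0.0228 for its probes). The contrast passed the test in 8 of the 9 limma alternatives and was lost without the filter on dim probes. With normexp background correction the differences from mock were −0.12 and 0.38.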

How the results depend on the processing

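No call of the 49 genes turned to the opposite direction under the 9 limma alternatives run. After *miR-486-3p*, 11 of the 17 falls and 2 of the 9 rises (*WNT3* and *DKK3*) were called in all 9. The calls after *miR-486-5p* depended most on the setting. Against 2 lower and 1 higher, median scaling gave 10 and 2, quantile normalization 4 lower, normexp (chosen after seeing the data) 19 and 6, probes above background on all arrays 17 and 4, and an intensity trend 19 and 5. With the authors' log2 values and without a filter, limma called 0 and 0, although 12757 and 16345 probes had an unadjusted p under 0.05. The further pathway genes, 5 lower and 1 higher, became 9 and 2, 18 and 12, 15 and 7, and 17 and 13 with median scaling, normexp, probes above background on all arrays and the trend, and 0 and 0 with the authors' values or without a filter. After *miR-486-3p*, median scaling gave 5 rises against 9. Between the strands, normexp and the trend gave 14 and 15 higher against 9, and no filter gave 6 lower and 4 higher.

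Past the size limit, normexp gave 5 lower and 0 higher after *miR-486-5p*, and 10 and 2 after *miR-486-3p*. A limit of 1 gave 4 and 1, and 9 and 3, and median scaling gave 3 higher after *miR-486-3p*. Without either mock array, 14 to 17 genes were lower and 2 higher under *miR-486-5p*, and 18 lower and 8 to 9 higher under *miR-486-3p*. limma then has no residual degree of freedom and was not run. The size of *WNT10A* (0.33) and *FZD8* (−0.27) after *miR-486-5p*, and of *WNT5B* (−1.10), *WNT16* (−0.38), *TCF7L1* (−0.47), *AXIN2* (0.38), *RNF43* (−0.26), *FZD8* (−0.26) and *WNT11* (0.22) after *miR-486-3p*, was smallest with normexp. The cause was not tested.

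No paired analysis was possible because each strand has 1 array. Normexp from mean signals and naming probes by a gene name column were both not run, and a slide block could not be fitted with 1 slide.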
